A study of Mus musculus with 12 samples.

Results

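Myh7, Acta1 and Tnnt2 encode 3 proteins of the contractile apparatus of muscle, and 4 array probes for them were followed across 12 mouse left ventricles (LVs). The deposited files identify probes by ID only. A probe received its gene name when the fold and p value given for a transcript in the study's list of changed transcripts matched the values computed from the deposited table, and the list served as a key to names and for nothing else. This key named 892 of the 60819 probes analysed, and accessions named 15 more, together 876 genes. Of these probes 4 belong to the 3 genes: 1 for Myh7 (NM_080728), 1 for Acta1 (ENSMUST00000034453) and 2 for Tnnt2 (NM_001130174 and NM_001130180). All 4 were thus chosen by their fold and p in infarcted hearts of the 2 genotypes, since that comparison put them on the list. Differences in it, and in every comparison that shares its arrays, are descriptions and were not tested. The difference between the sham groups comes from 6 other arrays and was tested, but the spread in that test was estimated over all 12 arrays and so draws in part on the arrays that chose the probes.

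The study asked how loss of microRNA-150 (miR-150) from cardiomyocytes (CMs) alters the transcripts of the LV with and without myocardial infarction (MI). All 12 mice were C57BL/6J and carried loxP-flanked miR-150 alleles (miR-150 fl/fl). The miR-150 cKO mice also carried alpha-MHC-Cre, in which the promoter of a cardiac myosin heavy chain drives Cre recombinase in CMs, and the miR-150 fl/fl controls had no Cre, so the effects of Cre and of the deletion cannot be told apart. Each group held 3 mice, 1 male and 2 females, and LVs were taken 4 weeks after sham surgery or after MI, for which the left anterior descending coronary artery was tied off. The sham miR-150 fl/fl mice were 13 to 14 weeks old and the sham miR-150 cKO mice 14 to 15. The infarcted controls were 14 and the infarcted miR-150 cKO mice 15, so that after MI genotype and age cannot be told apart. Age leaned the same way in the sham groups, whose ranges meet only at 14 weeks, and its part there was not tested. In RNA of whole LV, fewer CMs and less RNA per CM cannot be told apart. Of 10 CM marker genes listed for a check of the tissue, Tnnt2 was the single one with a named probe, and it was well above background on all 12 arrays.

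Muscle contracts when myosin heads of the thick filament pull on actin of the thin filament, and calcium controls this through the troponin and tropomyosin complex on the thin filament. Myh7 encodes the slow β-myosin heavy chain, which predominates in the ventricle of the mouse fetus and gives way to the α-chain (Myh6) after birth. Acta1 encodes skeletal α-actin, which is likewise abundant in the fetal heart and is replaced by cardiac α-actin (Actc1). Renewed expression of Myh7 and Acta1 in the adult ventricle is widely used as a mark of the fetal gene program of the stressed heart. Tnnt2 encodes cardiac troponin T, the subunit that anchors the troponin complex to tropomyosin and that is made as several splice forms. Myh6 and Actc1 had no named probe and are not analysed here.

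The promoters of the 3 genes are shown because muscle regulatory elements are well known from promoters of this kind. RefSeq (GRCm38.p6) gives a window of 300 bases, from 250 before to 50 after a transcription start, for 3 of the 3 genes. For Myh7 and Tnnt2, which have 2 starts each in the table, the window of the outermost start is printed. Each runs 5′ to 3′ on the gene's strand, and capitals mark matches to the M-CAT element (CATTCC on either strand), the site of TEAD factors, and to the CArG box, the site of serum response factor. The windows are chr14:54994577-54994876 (minus strand) for Myh7, chr8:123894726-123895025 (minus strand) for Acta1 and chr1:135836084-135836383 (plus strand) for Tnnt2.
Myh7: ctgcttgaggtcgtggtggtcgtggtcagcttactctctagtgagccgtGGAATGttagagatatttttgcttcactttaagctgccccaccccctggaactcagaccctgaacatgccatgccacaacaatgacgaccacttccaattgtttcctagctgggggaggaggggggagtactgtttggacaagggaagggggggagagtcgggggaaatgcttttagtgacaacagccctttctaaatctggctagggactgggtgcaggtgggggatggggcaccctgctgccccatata
Acta1: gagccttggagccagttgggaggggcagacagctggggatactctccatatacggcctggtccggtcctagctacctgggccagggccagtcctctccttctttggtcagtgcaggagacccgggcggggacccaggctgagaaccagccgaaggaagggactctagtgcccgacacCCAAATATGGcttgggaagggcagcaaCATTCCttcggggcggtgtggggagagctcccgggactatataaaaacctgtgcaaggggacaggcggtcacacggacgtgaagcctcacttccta
Tnnt2: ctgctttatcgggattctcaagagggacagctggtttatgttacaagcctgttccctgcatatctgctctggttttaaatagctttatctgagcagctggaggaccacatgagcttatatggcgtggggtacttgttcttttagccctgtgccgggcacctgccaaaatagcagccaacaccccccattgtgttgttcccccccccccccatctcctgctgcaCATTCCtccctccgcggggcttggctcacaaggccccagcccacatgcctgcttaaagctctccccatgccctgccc

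Each of the 3 windows held 1 M-CAT match, which 14.7% of all 32851 promoter windows hold. The match began 201 bases before the start in Myh7, where it reads on the opposite strand, 46 bases before it in Acta1 and 27 bases before it in Tnnt2. Acta1 was the one member with a CArG match, 73 bases before the start, and 1.63% of all windows hold one. It also had a TATAAA match, read on either strand in 13.6% of windows. E boxes (CANNTG, the same on both strands), the sites of basic helix-loop-helix factors, numbered 2 in Myh7, 2 in Acta1 and 5 in Tnnt2, and 72.3% of windows hold at least 1. These matches are letters in the reference sequence, and no binding was measured.

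Signals are given as log2 of the background-subtracted spot intensity minus the 75th percentile of the array, so 0 is the level of a probe at that percentile and a step of 1 is a factor of 2. Values of different probes are not compared with each other, since probes differ in brightness for reasons other than abundance. Whether a probe also matches related genes, such as other actins or myosins, was not examined. The fit was made with limma over the 54232 probes that cleared background clearly on 3 or more arrays, and all 4 member probes did so on all 12. A probe past the limits has a 1.5-fold or larger difference with p, before adjustment, under 0.05. Adjusted p values are by the Benjamini-Hochberg method over all 54232. The arrays lay on 2 slides. On slide 1 were all MI miR-150 cKO mice, 3 in number, beside replicate 3 of MI miR-150 fl/fl. On slide 2, row 1 carried sham miR-150 fl/fl and replicate 1 of sham miR-150 cKO, and row 2 carried replicates 2 and 3 of sham miR-150 cKO and replicates 1 and 2 of MI miR-150 fl/fl. The share of probes well above background in sham miR-150 cKO was 90.3% for replicate 1, and 74.1% and 76.1% for the others, so row and signal move with the spread inside that group.

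The 5 highest Myh7 signals of the 12 hearts came from miR-150 cKO mice, sham and infarcted. Its log2 signal was 3.83, 6.23 and 4.97 in the 3 sham miR-150 fl/fl mice (5.01 ± 1.20, mean ± SD, n = 3) and 7.78, 7.85 and 6.19 in the 3 sham miR-150 cKO mice (7.28 ± 0.94). It was 4.68, 5.19 and 4.84 in MI miR-150 fl/fl (4.90 ± 0.26) and 8.19, 8.26 and 8.06 in MI miR-150 cKO (8.17 ± 0.10). The sham groups overlapped by a narrow margin, since the lowest miR-150 cKO mouse lay just under the highest miR-150 fl/fl mouse. Both sham groups were spread widely, by 5.24-fold between the lowest and highest mouse in miR-150 fl/fl and by 3.16-fold in miR-150 cKO. After MI the mice of a group lay close together, within 1.42-fold in miR-150 fl/fl and within 1.15-fold in miR-150 cKO.

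**Figure D1:**
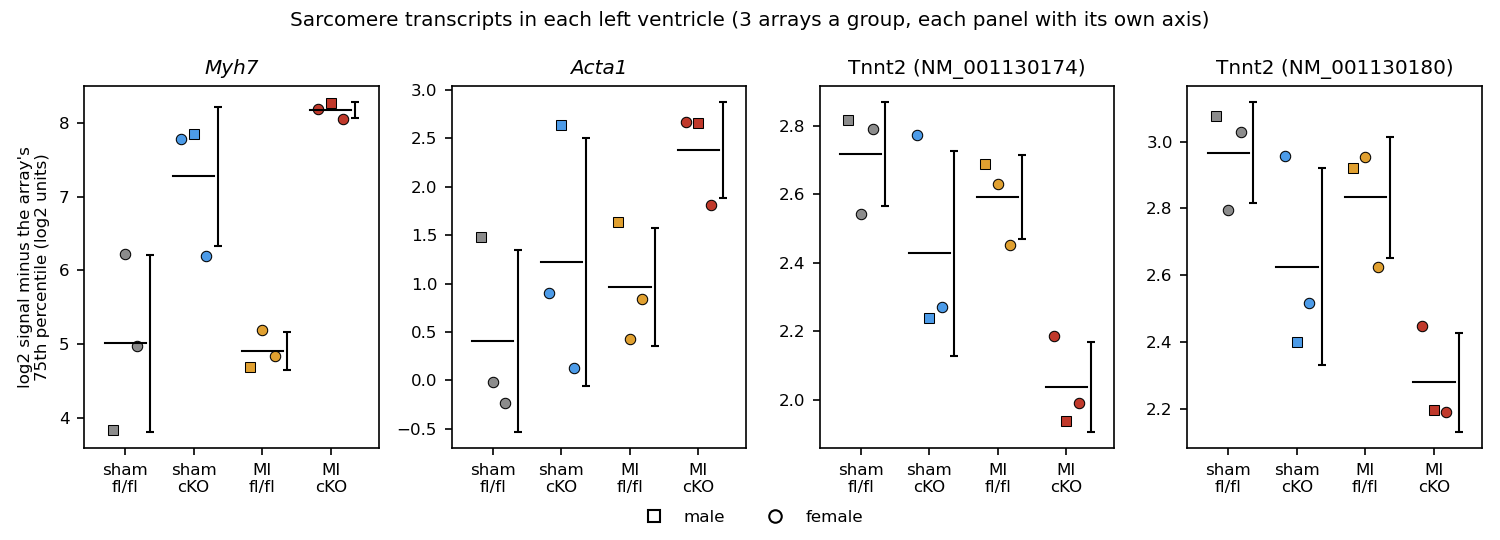
Log2 signal of each member probe, relative to the 75th percentile of its array (y axis, a separate scale per panel), in each of the 12 LVs by group (x axis). Squares are males and circles females, lines are group means and bars 1 SD. Myh7 lies between 8.06 and 8.26 in the MI miR-150 cKO mice and at or below 6.23 in all miR-150 fl/fl mice, while both Tnnt2 probes have their lowest mean in MI miR-150 cKO.

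In sham hearts, Myh7 was higher in miR-150 cKO than in miR-150 fl/fl by 2.26 on the log2 scale (SE 0.56, 95% confidence interval 1.03 to 3.50), or 4.80-fold. This was past the limits in limma, where the unadjusted p was 0.0021 and the adjusted p 0.509. The SE pools the sham arrays with the MI arrays, on which Myh7 was chosen and varied less. With the spread taken from the 6 sham arrays alone, the SE was 0.70, limma's unadjusted p was 0.0157 and the adjusted p 0.821, still past the limits. Myh7 was the 1 member probe of 4 past the limits, where 0.636% of the 54232 probes were higher past the limits and 2.12% lower. None of the 4 (0) had groups without overlap, against 5.05% of probes higher and 5.74% lower. Over all probes 0 reached an adjusted p under 0.05 in limma, and 4976 an unadjusted one. Only 10 probes had a larger increase. An exact two-sided permutation test of these 3 mice against 3 gave p = 0.2, and the smallest p it can give is 0.1. The value depends on single mice: leaving out replicate 1 of sham miR-150 fl/fl, the lowest Myh7 signal of the study, gave 1.68, and leaving out replicate 2, the highest of that group, gave 2.87. Under the unpaired 2-tailed test of the study's methods, which takes the spread from these mice and this probe alone, Myh7 was not past the limits.

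**Figure D2:**
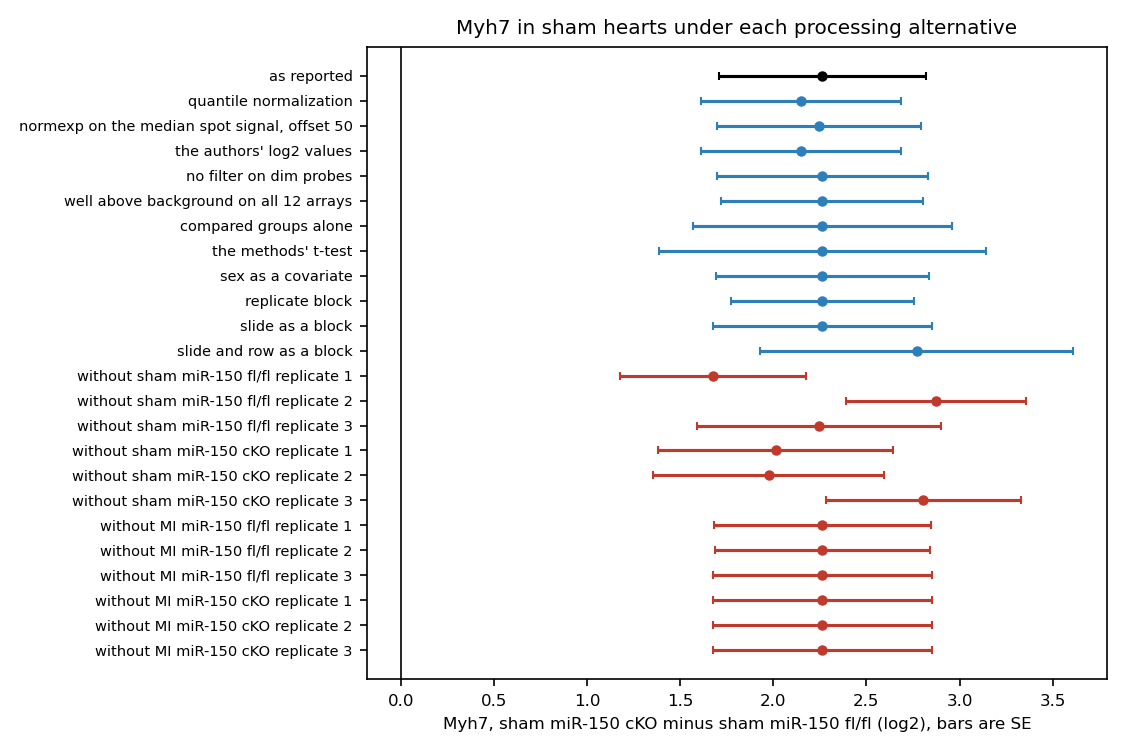
Difference of Myh7 between sham miR-150 cKO and sham miR-150 fl/fl on the log2 scale (x axis) under each way of processing the arrays (y axis), with bars of 1 SE. Blue points change the processing and red points leave out 1 array, and all values lie between 1.68 and 2.87, above 0.

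Within rows of slide 2 only a few mice can be set side by side. In row 1, sham miR-150 cKO replicate 1 stood 2.77 above the mean of the 3 sham miR-150 fl/fl mice and above each of them. This value rests on 1 miR-150 cKO array. In row 2 the other 2 sham miR-150 cKO mice stood 2.09 above the mean of 2 MI miR-150 fl/fl mice. These differ in surgery as well as genotype, and the MI arrays belong to the comparison that chose Myh7. The part of slide and row in the result was not tested. Over both slides the mean of the 3 uninjured miR-150 cKO hearts was 2.37 above that of the 3 infarcted miR-150 fl/fl hearts, with the same limits.

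After MI the difference between genotypes was 3.27 (SE 0.56), or 9.63-fold, and no probe on the array had a larger one. Its groups did not overlap, as did those of 15.4% of probes in that direction and 13.1% in the other. The comparison chose the gene, so nothing is read from this rank or share. On slide 1 alone, the 3 MI miR-150 cKO mice stood 3.33 above the single control, which had 4.84. In miR-150 fl/fl, MI and sham hearts differed by −0.11 (SE 0.56, interval −1.34 to 1.13). In miR-150 cKO, MI hearts were 0.90 (SE 0.56) above sham and did not overlap with them, as in 15.4% of all probes in this direction and 13% in the other. Without sham miR-150 cKO replicate 3, the lowest of its group, the difference in miR-150 cKO was 0.35. The difference between these responses was 1.0 (SE 0.79, interval −0.74 to 2.75), and leaving out 1 array moved it to between 0.40, without sham miR-150 fl/fl replicate 2, and 1.59, without replicate 1 of that group. By mean the order was MI miR-150 cKO, sham miR-150 cKO, sham miR-150 fl/fl and then MI miR-150 fl/fl, and among neighbours only the first pair had no overlap.

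Acta1 was more scattered. Its log2 signal was 1.48, −0.02 and −0.24 in sham miR-150 fl/fl (0.41 ± 0.94, mean ± SD) and 0.90, 2.63 and 0.12 in sham miR-150 cKO (1.22 ± 1.28). It was 1.63, 0.43 and 0.84 in MI miR-150 fl/fl (0.97 ± 0.61) and 2.66, 2.66 and 1.81 in MI miR-150 cKO (2.38 ± 0.49). The sham groups overlapped broadly. All 3 MI miR-150 cKO mice lay above all 3 MI miR-150 fl/fl mice, as in 15.4% of all probes, with 13.1% in the other direction. That comparison chose the probe, so nothing is read from the lack of overlap. In sham hearts the difference of 0.81 (SE 0.64, interval −0.60 to 2.23) was not past the limits, with an adjusted p of 0.674 in limma and an exact permutation p of 0.5. It was 0.11 without sham miR-150 cKO replicate 2 alone, the highest mouse of that group and a male. After MI the difference was 1.41 (SE 0.64), or 2.66-fold, and 1.54 against the 1 MI miR-150 fl/fl mouse of the same slide. MI exceeded sham by 0.56 (SE 0.64) in miR-150 fl/fl and by 1.16 (SE 0.64) in miR-150 cKO, each with overlapping groups, and the responses differed by 0.60 (SE 0.90). The order by mean was MI miR-150 cKO, sham miR-150 cKO, MI miR-150 fl/fl and sham miR-150 fl/fl, and every pair of neighbours in it overlapped.

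Within groups, Acta1 tended to be high in the male mouse. The male was the highest mouse in 3 of 4 groups, and in MI miR-150 cKO the male and a female were level at 2.66. This was noticed in the values and only then fitted. With sex as a term beside the groups, males were 1.29 (SE 0.28) above females on the log2 scale, for which the unadjusted p in limma was 0.00105 and the adjusted p 0.625. Of all probes, 0.159% were higher in males past the limits, and the male was highest in at least 3 of 4 groups for 9.2%. Without any 1 array the difference stayed between 1.01 and 1.58. The other members gave male minus female differences of −0.27 (SE 0.43) for Myh7, −0.03 (SE 0.12) for Tnnt2 NM_001130174 and −0.04 (SE 0.13) for NM_001130180. With sex in the fit, the genotype difference of Acta1 in sham hearts kept its value, and its unadjusted p in limma was 0.0534.

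Tnnt2 ran the other way, by small steps. The probe for NM_001130174 read 2.82, 2.54 and 2.79 in sham miR-150 fl/fl (2.72 ± 0.15, mean ± SD) and 2.77, 2.24 and 2.27 in sham miR-150 cKO (2.43 ± 0.30). It read 2.69, 2.63 and 2.45 in MI miR-150 fl/fl (2.59 ± 0.12) and 2.19, 1.94 and 1.99 in MI miR-150 cKO (2.04 ± 0.13). The 3 MI miR-150 cKO mice were the lowest of the 12, and the sham miR-150 cKO group held 1 mouse at the level of its controls and 2 below all of them. The probe for NM_001130180 read 3.08, 2.80 and 3.03 in sham miR-150 fl/fl, 2.96, 2.40 and 2.52 in sham miR-150 cKO, 2.92, 2.95 and 2.62 after MI in miR-150 fl/fl and 2.45, 2.2 and 2.19 in MI miR-150 cKO. RefSeq lists 9 curated Tnnt2 transcripts, and the probes are for 2 of them. The probe pair had a Pearson r of 0.99 over the 12 arrays and of 0.972 after group means were taken out, and whether the probes share target sequence was not examined, so they are not independent measurements of the gene.

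In sham hearts, Tnnt2 differed between genotypes by −0.29 (SE 0.15, interval −0.63 to 0.05) at NM_001130174 and by −0.34 (SE 0.16, interval −0.70 to 0.01) at NM_001130180. Neither was past the limits, with adjusted p values of 0.585 and 0.557 in limma and an exact permutation p of 0.2 for each. The row of the slide moved with this comparison: in row 1, the 1 sham miR-150 cKO mouse was 0.056 above the mean of the sham miR-150 fl/fl mice for NM_001130174 and −0.0087 from it for NM_001130180, and the 2 lower sham miR-150 cKO mice were those of row 2. Its part in the result was not tested. With slide and row as a block the differences were 0.056 and −0.0087. In row 2 both sham miR-150 cKO mice were below both MI miR-150 fl/fl mice, by 0.40 and 0.48 on average, and these differ in surgery as well as genotype.

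After MI, Tnnt2 was lower in miR-150 cKO by 0.55 (SE 0.15) for NM_001130174 and by 0.55 (SE 0.16) for NM_001130180. Neither probe had overlap, as in 13.1% of all probes in this direction and 15.4% in the other, and this comparison chose them. These folds of 1.47 and 1.47 lie just under the limit of 1.5, and on the authors' values, in which the probes were named, the log2 differences were −0.66 and −0.67, just past the limit of 0.585. Genes just outside it have no name here. On slide 1 the differences were −0.41 and −0.34 against 1 mouse. MI and sham differed by −0.12 (SE 0.15) and −0.13 (SE 0.16) in miR-150 fl/fl and by −0.39 (SE 0.15) and −0.35 (SE 0.16) in miR-150 cKO. In miR-150 cKO NM_001130174 alone had no overlap, as in 13% of all probes in this direction and 15.4% in the other. Both probes had the order sham miR-150 fl/fl, MI miR-150 fl/fl, sham miR-150 cKO and MI miR-150 cKO, and the last pair was the one without overlap, for NM_001130174 only.

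**Figure D3:**
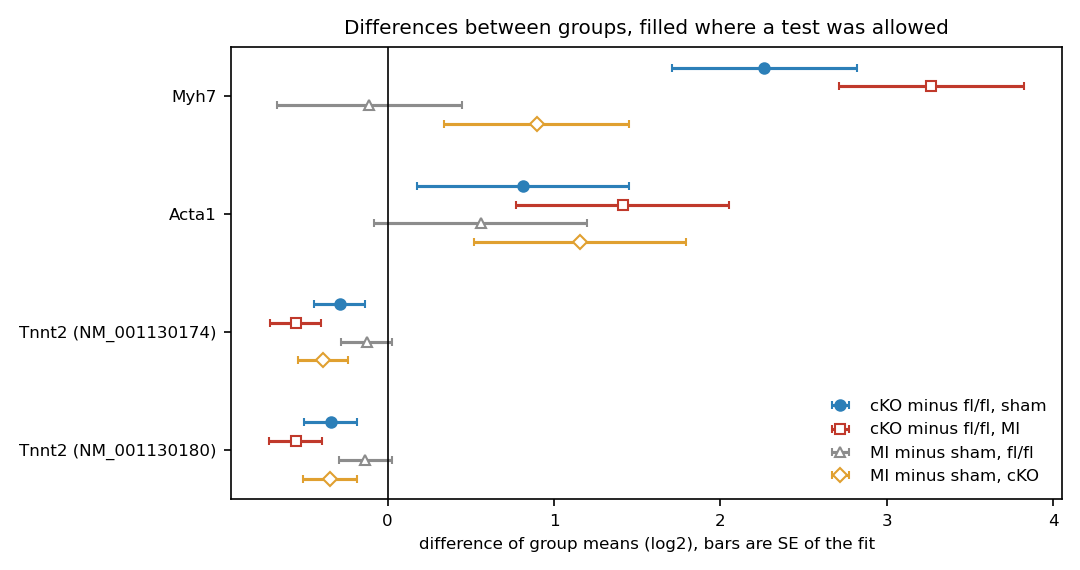
Differences of group means on the log2 scale (x axis) for each member probe (y axis), with bars of 1 SE of the fit, for genotype in sham (filled circles, the tested comparison) and in MI, and for MI against sham in each genotype (open marks, descriptions). Myh7 is displaced by genotype in both surgery groups, by 2.26 and 3.27, and both Tnnt2 probes lie below 0 in all 4 comparisons.

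Between mice of the same group little correlation was seen among the genes, though 12 arrays cannot exclude sizeable correlations. Over the 12 arrays the Pearson r of Myh7 was 0.557 with Acta1 and −0.735 and −0.751 with the Tnnt2 probes, and after group means were taken out these became −0.019, −0.085 and −0.118. Acta1 and Tnnt2 had −0.59 and −0.603 over all arrays and 0.022 and −0.043 within groups. The mice share groups and slides, so these values are descriptions.

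Other genes of the sarcomere could be followed only where they had a name. Of 61 further genes of the thick filament, thin filament and Z disc, 10 had a named probe and 51 had none. In the sham comparison 6 of the 10 could be tested, of which 1 was higher past the limits, 0 were lower and 5 were not past them. Of all probes, 0.636% were higher past the limits and 2.12% lower. The 6 had a median difference of −0.13, against −0.03 over all probes. All 6 were named by the MI comparison of the genotypes, so they are a selected set. Mybpc2, fast skeletal myosin-binding protein C of the thick filament, was the higher one, by 0.87 (SE 0.37, adjusted p 0.532 in limma). Its sham miR-150 fl/fl mice had 2.28, 3.0 and 2.17 and its sham miR-150 cKO mice 3.45, 4.1 and 2.5, so the groups overlapped, and the call was lost under 12 of 23 alternatives, among them leaving out sham miR-150 fl/fl replicate 1 or 3 or sham miR-150 cKO replicate 1 or 2. The others were Tcap, the titin cap of the Z disc, at −0.31 (SE 0.12, adjusted p 0.512), Tnnt1, slow skeletal troponin T, at −0.33 (SE 0.18), the Z-disc protein Ldb3 at −0.12 (SE 0.21), the light chain Myl6b at 0.15 (SE 0.21) and the Tpm1 transcript NM_001164255 at −0.13 (SE 0.28), the last well above background on 1 of 3 arrays in each of these groups.

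In MI miR-150 cKO against MI miR-150 fl/fl, 2 of the 10 could be tested, since sham arrays had named them, and 0 were past the limits in either direction, against 3.45% of probes higher and 1.31% lower. These were the perinatal myosin heavy chain Myh8 at −0.04 (SE 0.19, unadjusted p 0.831) and Fhl1 at 0.10 (SE 0.22, p 0.656), both from limma. The remaining 8 were named by this comparison or by one that shares its arrays, and their values are descriptions. Mybpc2 was 1.38 (SE 0.37) higher, Ldb3 0.72 (SE 0.21), Myl6b 0.59 (SE 0.21) and Ankrd1, a stress-responsive protein of the Z disc and I band, 0.73 (SE 0.26), each without overlap, as were 15.4% of all probes in that direction and 13.1% in the other. Tpm1 was at 0.86 (SE 0.28), or 0.053 with the normexp background correction, and was well above background on 1 of 3 MI miR-150 fl/fl arrays. Tcap was at −0.77 (SE 0.12) and Tnnt1 at −0.53 (SE 0.18), both without overlap, and Tnnt3, fast skeletal troponin T, was at −0.56 (SE 0.48) with overlap. With slide as a block, which sets the MI miR-150 cKO mice against the 1 MI miR-150 fl/fl mouse of their slide, Ldb3 was at 0.29, Myl6b at 0.36 and Tcap at −0.59.

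**Figure D4:**
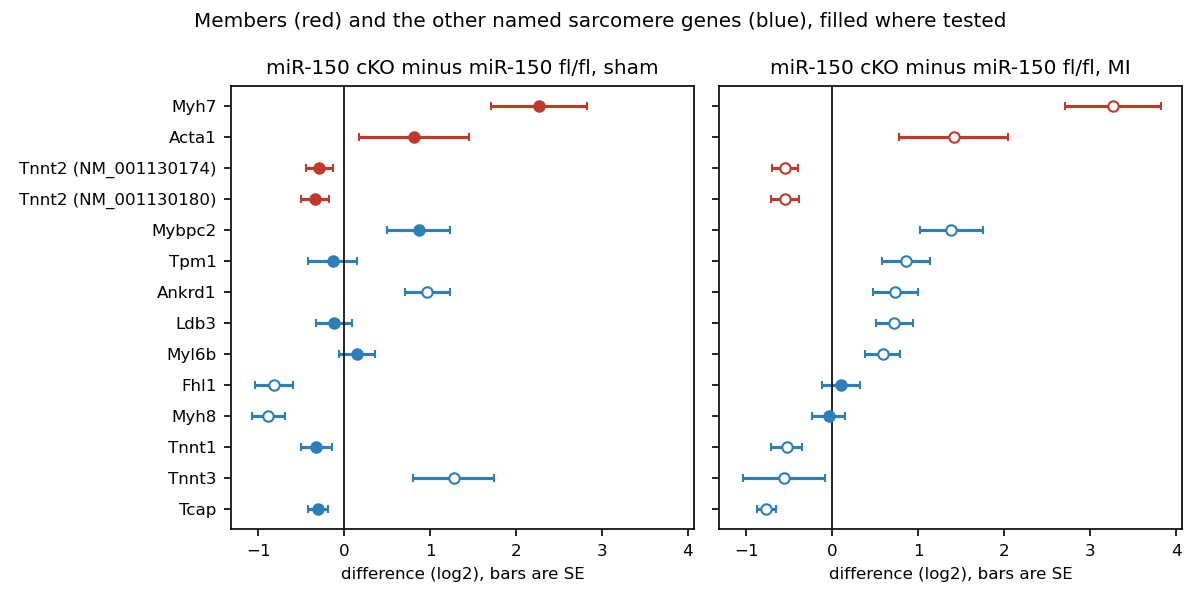
Difference between miR-150 cKO and miR-150 fl/fl on the log2 scale (x axes) in sham (left) and MI (right) for the 4 member probes (red) and the 10 other named sarcomere genes (blue), with bars of 1 SE. Filled points were tested and open points are descriptions, and Myh7 has the largest displacement in both panels, 2.26 and 3.27.

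In the sham comparison, the perinatal Myh8 did not follow Myh7. Its sham miR-150 fl/fl mice had 6.19, 6.48 and 6.06 and its sham miR-150 cKO mice 5.73, 5.36 and 4.98, a difference of −0.88 (SE 0.19) that also gave the probe its name and was not tested. Under the alternatives this difference ran from −1.07 to −0.51. Natriuretic peptides, secreted by stressed CMs and listed with the fetal genes, were higher in sham miR-150 cKO by 2.0 (SE 0.35) for Nppa and 2.33 (SE 0.32) for Nppb, again in the comparison that named them. It also named Ankrd1, at 0.97 (SE 0.26), and the dim probes of Tnnt3, at 1.27 (SE 0.48), and Fhl1, at −0.82 (SE 0.22). After MI, Nppa was higher in miR-150 cKO by 1.65 (SE 0.35), and Nppb by 0.63 (SE 0.32) with overlapping groups. This comparison also named Nppa, and one that shares its arrays named Nppb, so both values are descriptions. Of 11 calcium-handling genes listed, 2 had a named probe. Atp2a2, the calcium pump of the sarcoplasmic reticulum, was tested in sham at −0.33 (SE 0.23, adjusted p 0.652 in limma). It stood 0.87 (SE 0.23) higher in MI miR-150 cKO than in MI miR-150 fl/fl, or 0.44 with slide as a block. Slc8a1, the sodium-calcium exchanger, was at −0.15 (SE 0.20, adjusted p 0.797 in limma) in sham and at −0.73 (SE 0.20) in the MI comparison. The MI comparison named both genes, so its values are descriptions.

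A list of nonsarcomeric actin and myosin genes, with some other genes such as Csrp2, served as a comparison. Actb, cytoplasmic β-actin, was named from its accession and so could be tested everywhere. It was at 0.31 (SE 0.19, adjusted p 0.613 in limma) in sham miR-150 cKO against sham miR-150 fl/fl and at −0.22 (SE 0.19, adjusted p 0.593) in the MI comparison, neither past the limits. In miR-150 fl/fl it was 0.55 (SE 0.19) above sham after MI, where limma's unadjusted p was 0.0136 and its adjusted p 1.0. Of 14 genes of the nonsarcomeric list, 3 had a name, and the others were Myl6, a myosin light chain of nonmuscle and smooth muscle, at 0.44 (SE 0.25, adjusted p 0.598) in sham, and Csrp2 at 0.18 (SE 0.17, adjusted p 0.721). In MI miR-150 cKO against MI miR-150 fl/fl, Myl6 was at −0.46 (SE 0.25) and Csrp2 at −0.45 (SE 0.17), descriptions in the comparison that named them. All 3 genes of this list thus had lower signals in MI miR-150 cKO without overlap, as did Tnnt2 and 13.1% of all probes.

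Signals of the named marker genes of other cells are given as descriptions. Most names came from the list of transcripts that changed between these groups, so a marker that changed little would mostly have no name. The sums thus cannot show how such cells as a whole differed between groups. The 6 of 10 fibroblast markers with a name (Col1a1, Col1a2, Col3a1, Cthrc1, Fn1 and Postn) had a summed linear signal, in units of the 75th percentile of the array, of 8.63 to 19.0 in sham miR-150 fl/fl, 27.0 to 37.3 in sham miR-150 cKO, 42.5 to 44.4 in MI miR-150 fl/fl and 36.3 to 72.0 in MI miR-150 cKO. The 3 of 11 leukocyte markers with a name (Cd14, Emr1 and Lyz2) had 15.0 to 28.4, 32.0 to 44.5, 28.6 to 35.6 and 23.2 to 36.8 in the same order. Just 1 sham miR-150 fl/fl mouse had all 6 fibroblast markers clear of background, against every mouse of the other groups. Of the skeletal muscle markers, Acta1 itself and Tnnt3 were the 2 of 10 with a name, and Tnnt3 cleared background on none of the sham miR-150 fl/fl arrays (0 of 3), on 1 of 3 in sham miR-150 cKO and on all 6 after MI. No endothelial or smooth muscle and pericyte marker had a name, 0 of 10 and 0 of 8, and the 2 of 8 adipocyte markers, Adipoq and Cfd, had 0.237 to 0.573, 0.354 to 1.22, 0.890 to 3.17 and 0.221 to 0.332. The part of these cells in the values of Myh7, Acta1 and Tnnt2 was not tested.

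The 5 named genes most like each member were taken by Pearson r over the 12 arrays among 732 named probes of other genes that were well above background on all arrays. Each of the genes found had been named by the same comparison as the members, which by itself makes profiles alike. The r over 12 arrays also holds the scatter within groups, so choosing by it raises r within groups too. For Myh7 these were Maats1 (r = 0.954), Fgl2 (0.93), the BEN-domain gene Bend4 (0.922), the activin subunit gene Inhbb (0.904) and the stress cytokine gene Gdf15 (0.898), and within groups their r fell to between 0.494 and 0.809. For Acta1 they were the amino acid transporter Slc7a5 (0.918), Ankrd45 (0.915), Lrp11 (0.904), the secreted glutathione peroxidase Gpx3 (0.902) and the reticulon Rtn4 (0.881), and within groups r lay between 0.81 and 0.924. For the first Tnnt2 probe they were Acadvl, a mitochondrial enzyme of fatty acid oxidation (0.926), Wipf3 (0.918), Ceacam1 (0.914), Mpp4 (0.887) and the tubulin gene Tuba4a (0.887), with 0.657 to 0.924 within groups. The second Tnnt2 probe shared 4 of these and had Gm9268 (0.908) in place of Mpp4. None of them was on the sarcomere lists, but at most 10 of the 732 candidates could be, so nothing is read from this.

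**Figure D5:**
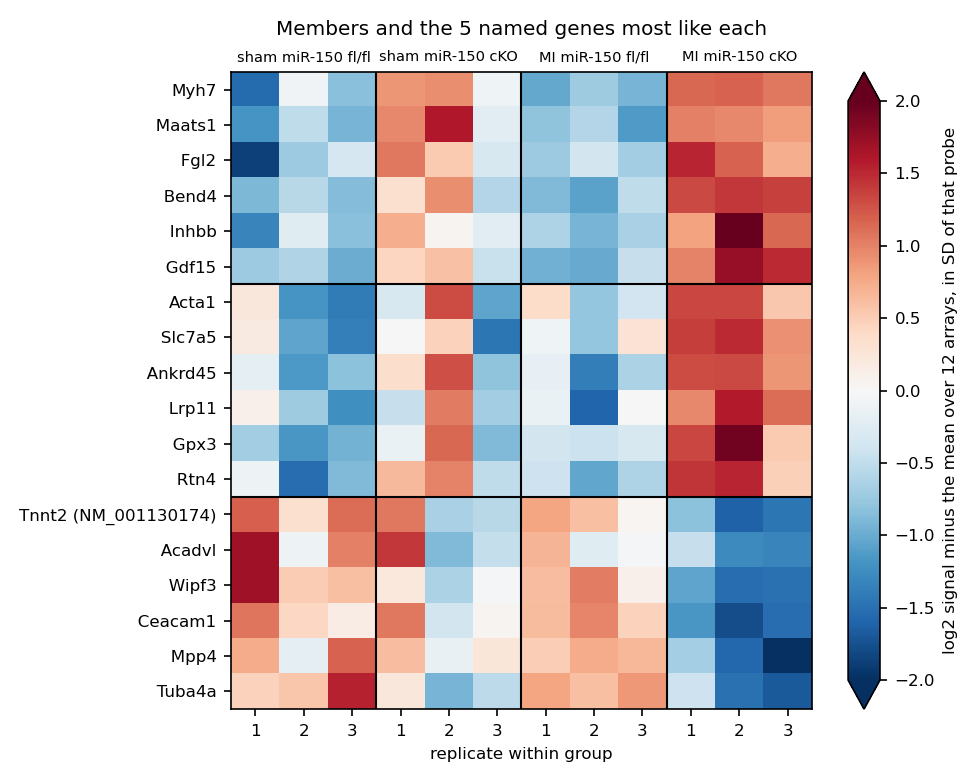
Log2 signal of Myh7, Acta1 and the Tnnt2 probe NM_001130174, each followed by its 5 most like named genes (rows), on the 12 arrays ordered by group and replicate (columns). Colour is the distance from the probe's mean over the 12 arrays in SDs of that probe, and saturates at 2 SDs. The Myh7 and Acta1 blocks are highest in MI miR-150 cKO, and in the Acta1 block replicate 2 of sham miR-150 cKO stands out above its group.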

How the data were processed

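LV RNA of 12 mice was hybridized to 12 Agilent 1-colour arrays. The authors deposited the linear, background-subtracted intensity of every spot (Agilent Feature Extraction 11.0.1.1 per the submitters' processing notes) and their own log2 values, whose quartiles are equal on all arrays. Here each array's log2 intensities were centred on their 75th percentile, and 6587 dim probes were left out. limma 3.58.1 (R 4.3.3, with the data.table package at 1.17.8) fitted 4 group means to 54232 probes and was tested on simulated data. Of 60930 probes that are not controls, 96 that the authors' values lack and 15 negative controls were left out. No spot was saturated (0), and 435 outlier spots (0.0593%) were treated as missing. Names came from fold and p values, matched within 2e-05 for 963 entries, each to exactly 1 probe. The authors' fold and p columns were used for naming alone. Genes named in the text are the members, all list genes with a named probe, and the 5 named genes most like each member. One listed gene is not reported here. Members, lists and rules were chosen with earlier results of these data known. With 3 mice a group, the number of arrays limits the precision. Alternatives are given in the closing section. Plots used Python 3.11.15 with matplotlib 3.10.9.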

Additional observations from a re-analysis of the deposited data

How the results depend on the processing

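Of 463 recalculated values for the members under 11 alternatives and the omission of each of 12 arrays, 449 kept their direction and call or moved by less than the spread between mice. Many of these differences could not move. Leaving out an array of a group outside the comparison, or changing the filter on dim probes, leaves a difference of group means as it was. The count thus overstates how far the values were put to the test. The unpaired 2-tailed test of the study's methods ended the call of Myh7 in sham hearts (2.26), which left 0 member probes past the limits in place of 1. With slide and row as a block, which rests the sham comparison on 1 miR-150 cKO array, Tnnt2 NM_001130174 turned to 0.056. The same block gave MI against sham in miR-150 fl/fl as 0.68 for Myh7 and as 0.46 and 0.47 for Tnnt2 NM_001130174 and NM_001130180. In miR-150 cKO it gave −0.0098 and 0.13 for these probes, and slide alone as a block −0.18 and −0.033. For Tnnt2 NM_001130180 both blocks gave −0.34 in the MI comparison, slide gave −0.0037 for the difference between the responses to MI, and slide and row gave −0.47 for NM_001130174. Ldb3 in miR-150 cKO, MI against sham, was at 0.68 (SE 0.21) in the main fit and reversed to −0.049 with slide and row. The causes were not tested.

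Leaving out 1 array gave 1.68 to 2.87 for Myh7 in sham hearts, 0.11 to 1.36 for Acta1, −0.46 to −0.19 for Tnnt2 NM_001130174 and −0.51 to −0.23 for NM_001130180. In the MI comparison it gave 3.16 to 3.41, 1.14 to 1.75, −0.63 to −0.50 and −0.66 to −0.49. For MI against sham in miR-150 cKO the ranges were 0.35 to 1.18, 0.61 to 1.86, −0.48 to −0.22 and −0.46 to −0.18, in miR-150 fl/fl −0.70 to 0.50, 0.23 to 1.1, −0.21 to −0.056 and −0.22 to −0.030, and for the difference between these responses 0.40 to 1.59, 0.050 to 1.30, −0.36 to −0.092 and −0.32 to −0.046. Same-numbered mice of different groups deviated with correlations from −0.273 to 0.274. Over 0.1 were 6 of 18 such pairs and 7 of 36 pairs with different numbers. These values cannot settle whether the numbers pair the mice, and the main fit used no pairing. With the replicate block Myh7 in sham hearts was 2.26 (adjusted p 0.531 in limma), and 1487 probes were past the limits in place of 1493. The normexp correction used the median spot signal. Dim probes (Tnnt3, Tpm1, Fhl1) are the least certain. In sham hearts Fhl1 was at −0.82 (SE 0.22) in the main fit and at −0.29 with normexp.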
